A study of Mus musculus with 10 samples.

Results

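Chromatin regulators and the HP1 proteins were followed in newborn mouse brain by their gene symbols. The set holds the genes of the HP1 and Polycomb chromobox proteins (Cbx), the Polycomb repressive complex PRC2 (Ezh1, Ezh2, Eed, Suz12), histone deacetylases (Hdac), lysine demethylases (Kdm) and lysine methyltransferases (Kmt). It also holds the Smarc and Chd remodellers and the DNA methyltransferases (Dnmt). The methyl-CpG binding domain proteins (Mbd) and the high mobility group proteins (Hmga, Hmgb, Hmgn) complete it. A probe set, the group of short probes that together report 1 transcript, was a member when the probe table gave it 1 symbol and that symbol matched the names of these families. This rule found 52 genes, of 8251 named on the array, with 68 probe sets among 12422 that are not controls, and it used no measured value. Of the 68, 57 probe sets of 47 genes passed the filter on dim values and were tested, and 11 were not.

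RNA of whole brain at postnatal day 0 was measured on 10 Affymetrix MG-U74Av2 arrays. XmO mice (39 chromosomes, a single X that is maternal by its label, 3 arrays) and XX_Paf females (40 chromosomes, 3 arrays) came from a cross of C57BL/6J with C3H/Paf. XpO mice (39 chromosomes, a single X that is paternal by its label, 2 arrays) and XX_InX females (40 chromosomes, 2 arrays) came from a cross of In(X)/C3H with C57BL/6J. They are called the Paf cross and the In(X) cross here. All 4 groups thus share C57BL/6J and C3H parents, and the labels do not say which parent was the mother, which X chromosomes the females carried, or whether an array holds 1 animal or a pool. The maternal or paternal origin of the single X therefore cannot be told apart from the cross, and XX_Paf against XX_InX compares females of the same karyotype between crosses. Karyotype stands here for the chromosome number alone, 39 or 40, and the X chromosomes of the 2 crosses may differ. If arrays share animals or litters, the p-values measure only the spread between these samples.

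These proteins package DNA and set which genes can be read. HP1 proteins bind methylated histone H3 tails and hold heterochromatin together, PRC2 writes the repressive methyl mark that the Polycomb chromobox proteins read, and deacetylases remove the acetyl groups of open chromatin. Kdm and Kmt enzymes remove and add histone methyl groups, and Smarc and Chd proteins move nucleosomes with ATP. DNA methyltransferases write methylated CpG sites, and some of the Mbd proteins read them. One member, Kdm6a (the histone demethylase UTX), lies on the X and escapes X inactivation in mouse, so an XX cell can read both copies.

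Promoters are shown for 4 members, Cbx1, Kdm6a, Smarca2 and Chd8, of which only Cbx1 had an adjusted p under 0.05 in any comparison. Chd8 was chosen after its values were seen, and Hmgb3, whose arrays separated by cross in the same way, was left out. The sequences just before the transcription starts of the 4 are shown so that these promoters can be compared. Each is the 250 bases upstream of the start, 5′ to 3′ on the strand of the gene, from RefSeq on build GRCm38.p6. Cbx1 lies at chr11:96788885-96789134 on the plus strand, Kdm6a at chrX:18162325-18162574 on the plus strand, Smarca2 at chr19:26604910-26605159 on the plus strand and Chd8 at chr14:52257761-52258010 on the minus strand. Capitals mark the letters of a GC box, GGGCGG, on either strand. They also mark the CCAAT box, which in the Chd8 window lies on the other strand and is printed as ATTGG, and the E box, which reads CACGTG.
Cbx1: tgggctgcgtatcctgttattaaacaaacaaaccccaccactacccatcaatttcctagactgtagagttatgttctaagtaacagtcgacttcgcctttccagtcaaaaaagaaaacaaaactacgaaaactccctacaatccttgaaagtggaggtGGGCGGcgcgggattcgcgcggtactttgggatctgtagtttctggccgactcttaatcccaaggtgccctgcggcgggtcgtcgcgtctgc
Kdm6a: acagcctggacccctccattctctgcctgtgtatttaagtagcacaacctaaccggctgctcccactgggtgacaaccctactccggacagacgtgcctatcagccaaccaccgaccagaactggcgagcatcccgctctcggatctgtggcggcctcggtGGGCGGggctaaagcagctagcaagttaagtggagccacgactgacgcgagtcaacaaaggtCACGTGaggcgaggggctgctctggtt
Smarca2: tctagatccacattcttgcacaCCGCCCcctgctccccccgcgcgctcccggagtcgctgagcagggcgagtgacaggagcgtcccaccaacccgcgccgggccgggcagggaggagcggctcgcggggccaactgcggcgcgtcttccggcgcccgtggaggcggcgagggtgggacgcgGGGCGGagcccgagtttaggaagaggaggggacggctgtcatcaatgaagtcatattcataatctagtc
Chd8: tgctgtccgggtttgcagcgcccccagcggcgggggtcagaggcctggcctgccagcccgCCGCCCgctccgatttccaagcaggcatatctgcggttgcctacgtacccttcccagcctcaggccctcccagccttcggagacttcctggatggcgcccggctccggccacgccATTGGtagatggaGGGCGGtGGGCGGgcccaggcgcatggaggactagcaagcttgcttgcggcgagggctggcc
The Cbx1 window held 1 GC box, the Kdm6a window 1 GC box and 1 E box, the Smarca2 window 2 GC boxes, and the Chd8 window 3 GC boxes and 1 CCAAT box. All 4 windows thus share the GC box, which Sp1 family factors are known to bind, and none held TATAAA.

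RefSeq windows of 300 bases (250 before to 50 after a start) were found for 41 of the 52 member genes, 56 windows in all. A GC box lay in 40 of the 56 (71.4%), against 57.1% of 8408 windows of genes on the array and 35.7% of 32851 windows in the whole table. A CCAAT box lay in 48.2% of the member windows (37.0% for genes on the array, 37.4% for the whole table), an E box in 8.93% (9.55% and 7.15%) and TATAAA in 5.36% (9.98% and 13.6%). These 4 motifs were searched on both strands, matches of different motifs may overlap, and each was counted separately. The median window of a member held 24.5 CG dinucleotides, against 18 for genes on the array and 7 for the whole table. Member promoters were thus richer in CpG than the other windows, and a match is only a run of letters, not a bound site.

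Across the series every array had the same trimmed mean intensity, 500.3, and arrays correlated at 0.927 to 0.969 (Pearson's r of log2 values over the tested probe sets, which are no replicates of each other). Xist, the RNA that coats the inactive X, read 21.3 to 49.9 on the 5 XO arrays and 1673 to 4082 on the 5 XX arrays, so the arrays matched their karyotype labels. All 7 measured neuron markers lay above background on every array, and their summed intensity ran from 57061 to 66793. Background was taken as the brightest of 11 Y-linked probe sets, 33.6 to 136.6 by array, and 54 of the 68 members lay above it on all 10 arrays. In bulk tissue fewer cells of a type and less RNA per cell cannot be told apart. Intensities of different probe sets are not set against each other, since each probe set has its own brightness.

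In X-monosomic brain, the chromatin regulators as a group showed little movement. With both crosses weighted equally (XO against XX), 0 of the 57 tested members passed an adjusted p of 0.05, where 1 of all 8695 tested probe sets did (0.0115%). At an unadjusted p under 0.05 there were 2 members, Kdm6a and Chd4, against 2.6% of all probe sets, and for 0 members did the arrays separate in the same direction in both crosses (0.851% of all did). Of the 57 members, 29 had a positive log2 difference (50.1% of all did), the median was 0.0 as it was over all tested probe sets, and 56 lay within 0.5 of zero on the log2 scale (98.2%, against 96.5% of all). The member outside that range was Mbd2, described further on.

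The same held within each cross. In XmO against XX_Paf, 0 members passed (0.023% of all probe sets did), 5 had an unadjusted p under 0.05 (8.77%, against 5.53% of all), and the 2 groups did not overlap for 8 members (14.0%, against 13.9% of all). In XpO against XX_InX, 0 members passed (0.0115% of all), 0 had an unadjusted p under 0.05 (3.38% of all), and the groups did not overlap for 10 members (17.5%, against 23.4% of all). For the difference between the 2 monosomy effects, 0 members passed (0.023% of all), and 1 member, Cbx1, had an unadjusted p under 0.05 (5.91% of all). Cbx1 was also the 1 member whose arrays did not overlap in either cross with effects of opposite sign (2.02% of all). A member's monosomy effect had the same sign in both crosses in 25 of 57 cases (43.9%), beside 42.3% of all tested probe sets. These shares lay near or below their background, except the 8.77% at an unadjusted p in the Paf cross.

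**Figure D1:**
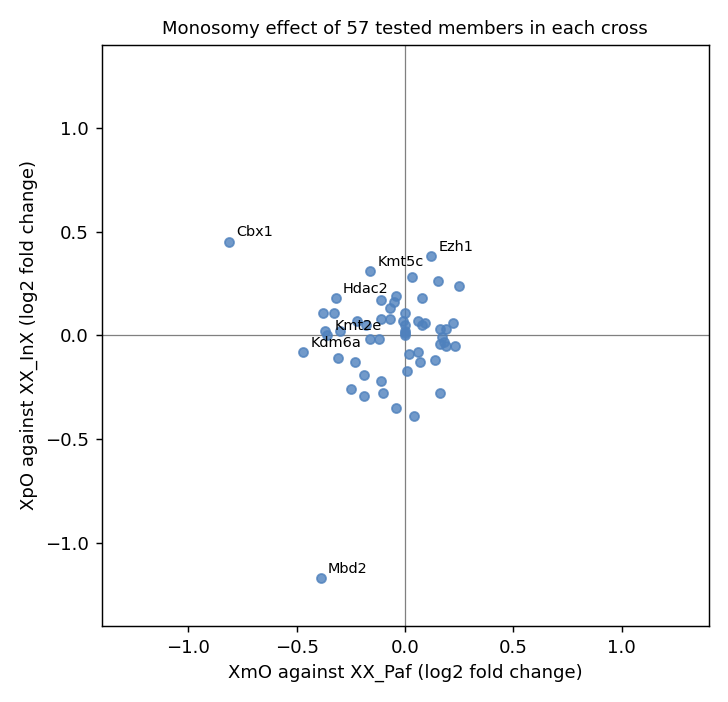
Each point is 1 of the 57 tested member probe sets, with the log2 fold change of XmO against XX_Paf on the x axis and of XpO against XX_InX on the y axis. Most points crowd around zero, Cbx1 lies at -0.81 and 0.45, and Mbd2 at -0.39 and -1.17.

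Differences between the crosses were measured with karyotype held the same. In XX_Paf against XX_InX, 1 of 57 members passed, Cbx1, where 7 of all probe sets did (0.0805%), 6 of them higher in XX_Paf (0.069%). Here 6 members had an unadjusted p under 0.05 (13.8% of all), 32 of 57 had a positive difference (47.3% of all), and the groups did not overlap for 11 (37.1% of all). In XmO against XpO, 0 members passed (0.0115% of all), 1 had an unadjusted p under 0.05 (4.83% of all), and the groups did not overlap for 10 (17.4% of all). Over both genotypes together (Paf against In(X) cross), 0 members passed (0.104% of all) and 5 had an unadjusted p under 0.05 (12.7% of all). The arrays separated in the same direction within both karyotypes for 5 (4.73% of all).

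In that last comparison every Paf-cross array lay above every In(X)-cross array of the same karyotype for all 5 of these members. Counted in either direction they were 8.77% of members, against 4.73% of all probe sets. In this direction alone, which was taken after the values were seen, 2.31% of all probe sets separated. The 5 members are Cbx1, Kdm6a, Smarca2, Chd8 and Hmgb3. The last 2 fell outside the naming rule for this comparison and were chosen after their values were seen. The arrays of a group varied about as much for members as for others. The median residual SD was 0.219 (log2) over members and 0.231 over all tested probe sets, from 0.0596 for Hmgn1 to 0.769 for Mbd2.

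**Figure D2:**
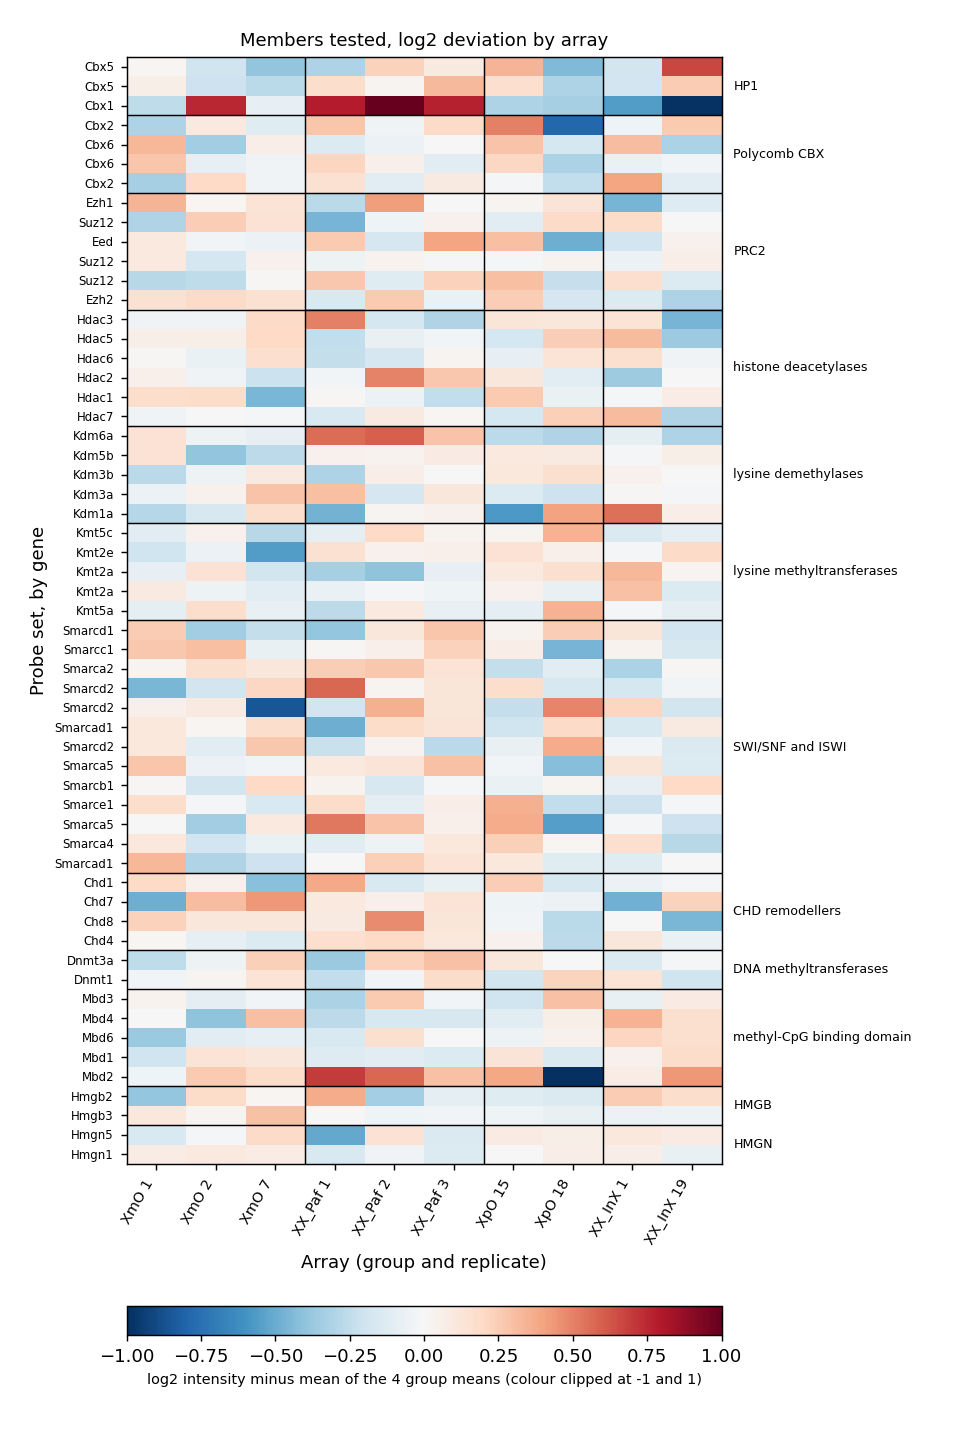
Rows are the 57 tested member probe sets by family, columns the 10 arrays, and colour the log2 intensity minus the mean of the 4 group means, clipped at -1 and 1. The Cbx1 row is high on the 3 XX_Paf arrays and on XmO 2 and low on both XX_InX arrays, and the darkest cell of Mbd2 is XpO 18.

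Among the HP1 genes, Cbx1 was higher in XX_Paf than in XX_InX brain. Cbx1 encodes HP1 beta, a chromodomain protein of heterochromatin. Its intensity was 676, 975 and 669.6 on the XX_Paf arrays and 266 and 198 on the XX_InX arrays. In XmO it was 329.8, 664 and 372, and in XpO 316 and 312. Both XpO arrays thus lay between the XX_InX and the XmO arrays, and XmO 2 lay close to the lower XX_Paf arrays. The group means were 774 ± 174 (SD, n = 3) in XX_Paf, 455 ± 182 (n = 3) in XmO, 314 ± 3.46 (n = 2) in XpO and 232 ± 48.2 (n = 2) in XX_InX.

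Cbx1 rose 3.31-fold in XX_Paf against XX_InX, a log2 difference of 1.73 with SE 0.28 and an adjusted p of 0.0475 (limma, Benjamini-Hochberg over all tested probe sets). It was the one member called in any of the 7 comparisons. The call was lost without any 1 of the 5 arrays of these groups, with adjusted p from 0.0919 to 0.208 and log2 differences from 1.52 to 1.94, and also with no filter on dim values (adjusted p = 0.179) or without limma's intensity trend (adjusted p = 0.186). Over both karyotypes the Paf cross exceeded the In(X) cross by 1.10 (SE 0.20, adjusted p = 0.0576), and XmO against XpO gave 0.47 (SE 0.28, adjusted p = 0.969).

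The 2 monosomy effects on Cbx1 had opposite signs. XmO against XX_Paf gave -0.81 (SE 0.25, adjusted p = 0.877) and XpO against XX_InX gave 0.45 (SE 0.31, adjusted p = 1.0), with no overlap of the arrays in either cross. Their difference was -1.26 (SE 0.40, adjusted p = 0.832), so it did not pass. The order of the group means was XX_Paf, XmO, XpO, XX_InX, and of the neighbours in this order no pair passed the test.

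The second Cbx1 probe set gave no check on this, since it read 1.8 to 59.2 and exceeded background on 1 of 10 arrays. Genes beside Cbx1 on chromosome 11 gave, in XX_Paf against XX_InX, 0.37 (adjusted p = 0.416) for 1 probe set of Nfe2l1, the next gene, and -0.09 for its other probe set. Cdk5rap3, also close by, gave -0.50 (adjusted p = 0.298) and -0.02, and the Hoxb genes on the other side lay between -0.66 and 0.33. None of these neighbours passed the test.

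Markers of other cells also differed between these arrays. The summed intensity of 4 measured erythroid markers, of 8 listed, was 11689 to 16971 in XX_Paf and 11284 to 17288 in XmO. It was 5952 to 7455 in XpO and 4016 to 6178 in XX_InX. Of the 4, 1 was called in XX_Paf against XX_InX, higher in XX_Paf. In the Paf against the In(X) cross 2 were called, and all 4 were higher in the Paf cross. The 3 liver markers summed to 364 to 1448 in XX_Paf and 118 to 286 over the other groups. None of the 3 lay above background on all arrays, and of the 2 tested, 1 was higher and 1 lower in XX_Paf against XX_InX. The 5 skeletal muscle markers summed to 3028 on XX_Paf 2, the array with the highest Cbx1, and to 482 to 887 on the other 9. Only 1 of the 5 lay above background on all arrays, and of the 3 tested, 2 were higher and 1 lower in XX_Paf against XX_InX. The 3 choroid plexus markers summed to 2441 to 3316 in XX_Paf, highest on XX_Paf 2. They summed to 1988 to 2225 in XX_InX, 1370 to 2640 in XmO and 986 to 1919 in XpO. Only 1 of the 3 lay above background on all arrays, and the 2 tested were higher in XX_Paf than in XX_InX. No marker read 0 on any array. Without XX_Paf 2 the Cbx1 difference was 1.55 and without XX_Paf 1, the array with the highest liver sum, 1.81. The part of these cells in the Cbx1 result was not tested.

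Cbx5, which encodes HP1 alpha, did not follow Cbx1. Its brighter probe set by mean over the arrays read 1128, 973 and 850.2 in XmO, 902, 1305 and 1187 in XX_Paf, 1407 and 819.8 in XpO and 979 and 1768 in XX_InX. The groups overlapped in every pairing, and XX_Paf against XX_InX gave -0.23 for this probe set and 0.14 for the other. XO against XX gave -0.24 and -0.21, neither of which passed. Cbx3, which encodes HP1 gamma, was covered by 2 probe sets that it shares with a pseudogene and that are therefore no members. They read 557 to 854 and 1399 to 2234 and gave 0.21 (adjusted p = 0.615) and 0.11 (adjusted p = 0.756) in XX_Paf against XX_InX.

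**Figure D3:**
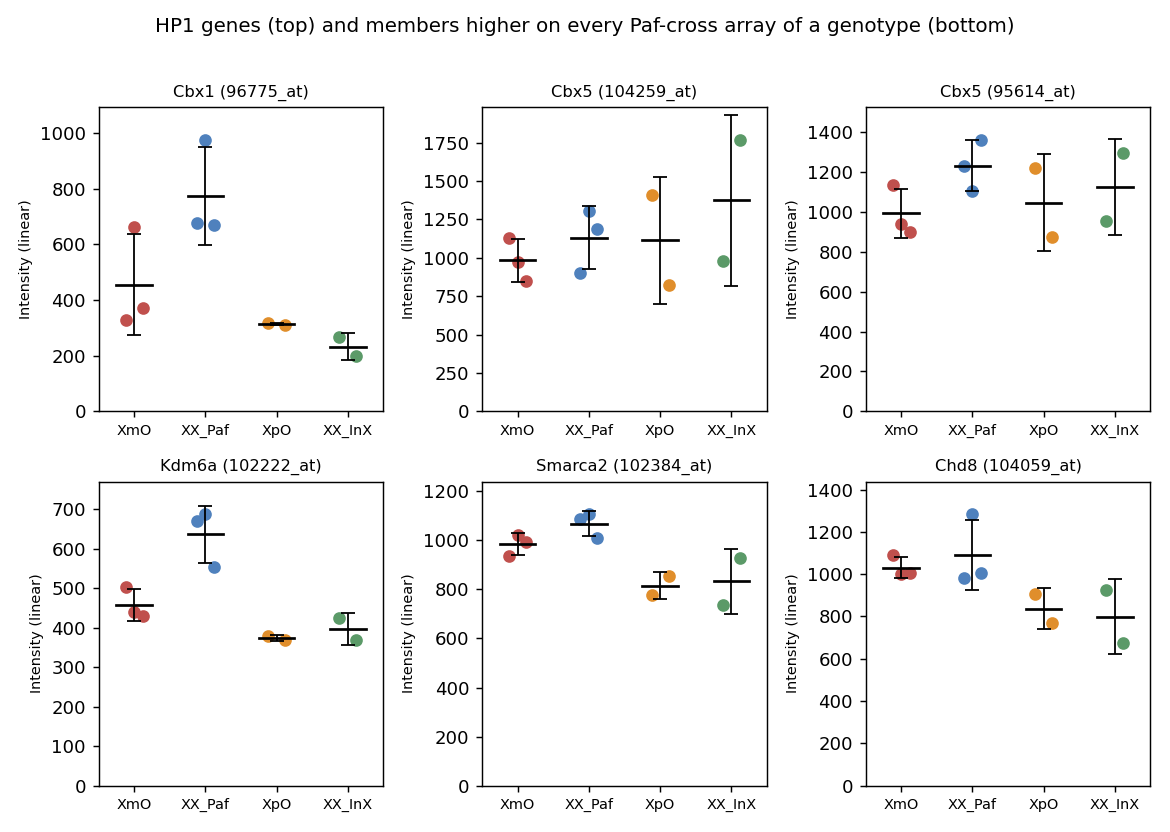
Linear intensity by group for Cbx1, the 2 Cbx5 probe sets, Kdm6a, Smarca2 and Chd8, with a point for each array, a line at the group mean and bars of 1 SD (n = 3 for XmO and XX_Paf, n = 2 for XpO and XX_InX). Cbx1, Kdm6a, Smarca2 and Chd8 are higher on each Paf-cross array than on each In(X)-cross array of the same karyotype, and the Cbx5 groups overlap.

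The X-linked members were Kdm6a, Hdac6, Hmgb3 and Hmgn5. Kdm6a, which removes the methyl mark that PRC2 writes, read 505, 441 and 431 in XmO, 670.0, 688 and 555 in XX_Paf, 380.5 and 369.9 in XpO and 425 and 368 in XX_InX. All 3 XX_Paf arrays lay above the other 7, and XpO and XX_InX overlapped. The log2 difference was 0.68 (SE 0.16, adjusted p = 0.17) for XX_Paf against XX_InX and 0.48 (SE 0.12, adjusted p = 0.157) for the Paf against the In(X) cross. Against the XX females of the same cross, XmO gave -0.47 (SE 0.15, adjusted p = 0.877) and XpO gave -0.08 (SE 0.18, adjusted p = 1.0), and the test of their difference gave -0.40 (SE 0.23, adjusted p = 0.862). Genes close to Kdm6a on the X gave -0.03 (Ndp), -0.38 (Maoa, adjusted p = 0.24) and -0.12 (Ndufb11) in XX_Paf against XX_InX.

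Hdac6, a mainly cytoplasmic deacetylase that acts on tubulin, averaged 2745 ± 228 in XmO (SD, n = 3), 2457 ± 241 in XX_Paf (n = 3), 2726 ± 285 in XpO (n = 2) and 2792 ± 261 in XX_InX (n = 2). Hmgn5, a nucleosome-binding protein, averaged 571 ± 70.2, 509 ± 114, 593 ± 8.20 and 603 ± 8.06 in the same order. Over both crosses XO against XX gave 0.06 for Hdac6, 0.08 for Hmgn5, 0.08 for Hmgb3 and -0.27 (SE 0.12) for Kdm6a, and none of these passed. Hmgb3, a DNA-bending protein, read 9619, 9102 and 10941 in XmO, 8911, 8679 and 8776 in XX_Paf, 8655 and 8475 in XpO and 8563 and 8639 in XX_InX. The XmO arrays were the 3 highest, with a log2 difference from XX_Paf of 0.17 (SE 0.09, adjusted p = 0.887). The Y-linked member, Kdm5d, read 5.6 to 24.2 and was not tested.

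The genes of PRC2 showed no called difference in any comparison. Ezh2, the catalytic subunit of dividing cells, read 719.6, 742 and 721 in XmO, 582, 778 and 619.7 in XX_Paf, 770.3 and 578 in XpO and 591 and 522 in XX_InX. Its log2 difference in XO against XX was 0.21, and that of Ezh1, the catalytic subunit known from non-dividing cells, was 0.25. The XpO arrays of Ezh1 (252 and 270.3) both lay above the XX_InX arrays (179 and 226), with a difference of 0.38 (SE 0.26, adjusted p = 1.0). Eed, which binds the finished mark, gave -0.09, and the 3 probe sets of Suz12, a scaffold of the complex, gave -0.14, 0.00 and 0.07. Of the 6 PRC2 probe sets, 4 had a positive difference in XX_Paf against XX_InX, with a median of 0.18 beside -0.02 over all tested probe sets.

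The cycling-cell markers, 16 of 18 measured, summed to 6014 to 6191 in XmO, 6429 to 6935 in XX_Paf, 6985 to 7284 in XpO and 6556 to 6718 in XX_InX. The mean of Ezh2 was highest in XmO (727), where these sums were lowest, and their part in its values was not tested. Dnmt1, which copies DNA methylation after replication, averaged 2079 ± 124, 1983 ± 298, 2054 ± 406 and 1980.4 ± 324 in XmO (n = 3), XX_Paf (n = 3), XpO (n = 2) and XX_InX (n = 2). Its 7 differences lay between 0.00 and 0.08. Dnmt3a, which sets new methylation, averaged 138 ± 24.0, 147 ± 34.4, 144 ± 8.27 and 132 ± 8.77 in the same order. For both genes the 4 group means lay closer together than the widest SD of a group, and the second probe set of each was too dim to be tested.

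**Figure D4:**
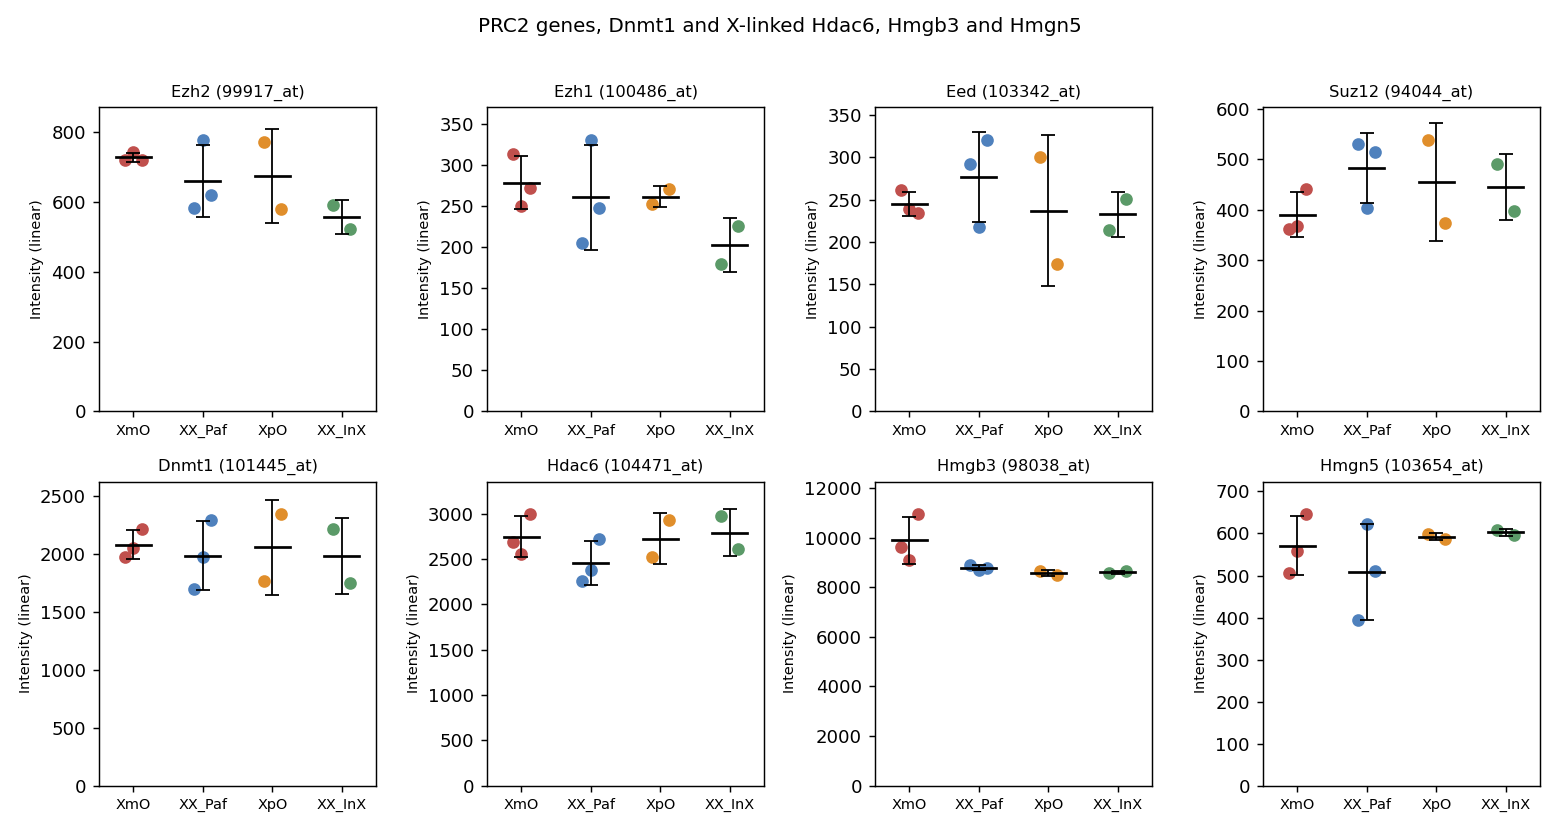
Linear intensity by group for Ezh2, Ezh1, Eed, Suz12, Dnmt1, Hdac6, Hmgb3 and Hmgn5, with a point for each array, a line at the group mean and bars of 1 SD (n = 3 for XmO and XX_Paf, n = 2 for XpO and XX_InX). Most groups overlap, and the 3 XmO arrays of Hmgb3 lie above the other 7.

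Of the Polycomb chromobox genes, Cbx2 and Cbx6 had 4 tested probe sets, and their differences in XO against XX lay between -0.26 and 0.07. Cbx7 read 48.9 and 40.9 in XX_InX and 4.6 to 16.6 on the other 8 arrays. Both high values still lay under the brightest Y-linked probe set of their arrays, so Cbx7 was not above background on any array and was not tested.

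Among the deacetylases, Hdac2, a class I enzyme of several co-repressor complexes, read 2520.3, 2376 and 2097 in XmO, 2386, 3445 and 2946 in XX_Paf, 2641 and 2256 in XpO and 1906 and 2429 in XX_InX. Only XX_Paf 2 and XX_Paf 3 lay above all other arrays. The monosomy effects differed in sign, -0.32 for XmO and 0.18 for XpO, and the difference between them was -0.50 (SE 0.23, adjusted p = 0.832). Hdac5, a class II enzyme regulated by export from the nucleus, read 1329, 1328 and 1462 in XmO and 1074, 1206 and 1249.8 in XX_Paf, with no overlap and a difference of 0.22 (adjusted p = 0.887). Over the 6 deacetylases the median in XO against XX was 0.07, and Hdac1, Hdac3 and Hdac7 gave 0.07, 0.15 and 0.01.

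Of the demethylases beside Kdm6a, all 4 tested had groups that did not overlap in some comparison, and none of these differences passed. Such separation was common. Over all tested probe sets it held for 23.4% in XpO against XX_InX, 17.4% in XmO against XpO and 37.1% between the XX groups. Kdm3a gave -0.17 and Kdm3b 0.11 in XpO against XX_InX, where Kdm5b gave 0.07. In XmO against XpO Kdm3a gave 0.26 and Kdm3b -0.21, and Kdm1a gave -0.44 (adjusted p = 0.522) between the XX groups. Kdm1a is the demethylase LSD1, and its XX_InX arrays read 372 and 266 against 183, 259.6 and 262 in XX_Paf. Among the methyltransferases, Kmt2e, a reader of active chromatin in the MLL family, read 1817, 1994 and 1416 in XmO, 2319, 2148 and 2154 in XX_Paf, 2299 and 2149.8 in XpO and 2068 and 2381 in XX_InX. All 3 XmO arrays lay below the other 7. The differences were -0.36 (SE 0.13, adjusted p = 0.877) against XX_Paf and -0.37 (SE 0.15, adjusted p = 0.969) against XpO, and neither passed.

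Kmt2a, the histone methyltransferase MLL1, had probe sets that gave different sizes in XX_Paf against XX_InX, -0.45 (adjusted p = 0.327) for the dimmer and -0.12 for the brighter. Kmt5c, which methylates histone H4 in heterochromatin, read 643 and 799 in XpO and 571 and 589 in XX_InX, a difference of 0.31 (adjusted p = 1.0) with no overlap. Probe sets of the same gene often differed in direction, with the same sign in 29 of 56 cases over 8 genes and 7 comparisons.

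Smarca2, the BRM ATPase of SWI/SNF complexes, read 936, 1023 and 994 in XmO, 1087, 1106 and 1008 in XX_Paf, 777 and 853 in XpO and 738 and 926 in XX_InX. Every Paf-cross array exceeded every In(X)-cross array, and XmO 1 and XX_InX 19 were the closest pair. The difference over both karyotypes was 0.32 (SE 0.10, adjusted p = 0.229). Its paralogue Smarca4, the BRG1 ATPase, gave -0.07 in the same comparison, and Smarcc1, a core scaffold subunit, gave 0.26. Over the 13 tested Smarc probe sets, not all of which belong to SWI/SNF, the median difference of XX_Paf against XX_InX was 0.16, with 0 called.

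Chd8, a remodeller known as an autism risk gene in humans, read 1089, 1000.1 and 1003 in XmO, 983, 1284 and 1005 in XX_Paf, 907 and 768 in XpO and 925 and 675 in XX_InX. Each Paf-cross array lay above each In(X)-cross array. The difference was 0.38 (adjusted p = 0.242) over both karyotypes and 0.45 (SE 0.17, adjusted p = 0.284) between the XX groups. Chd4, the ATPase of the NuRD complex, averaged 6934 ± 384 in XmO and 8116 ± 271 in XX_Paf (SD, n = 3 each) with no overlap of the arrays, and its difference in XO against XX was -0.18 (SE 0.08, adjusted p = 1.0). Chd1 and Chd7 gave -0.02 and 0.03 in that comparison.

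**Figure D5:**
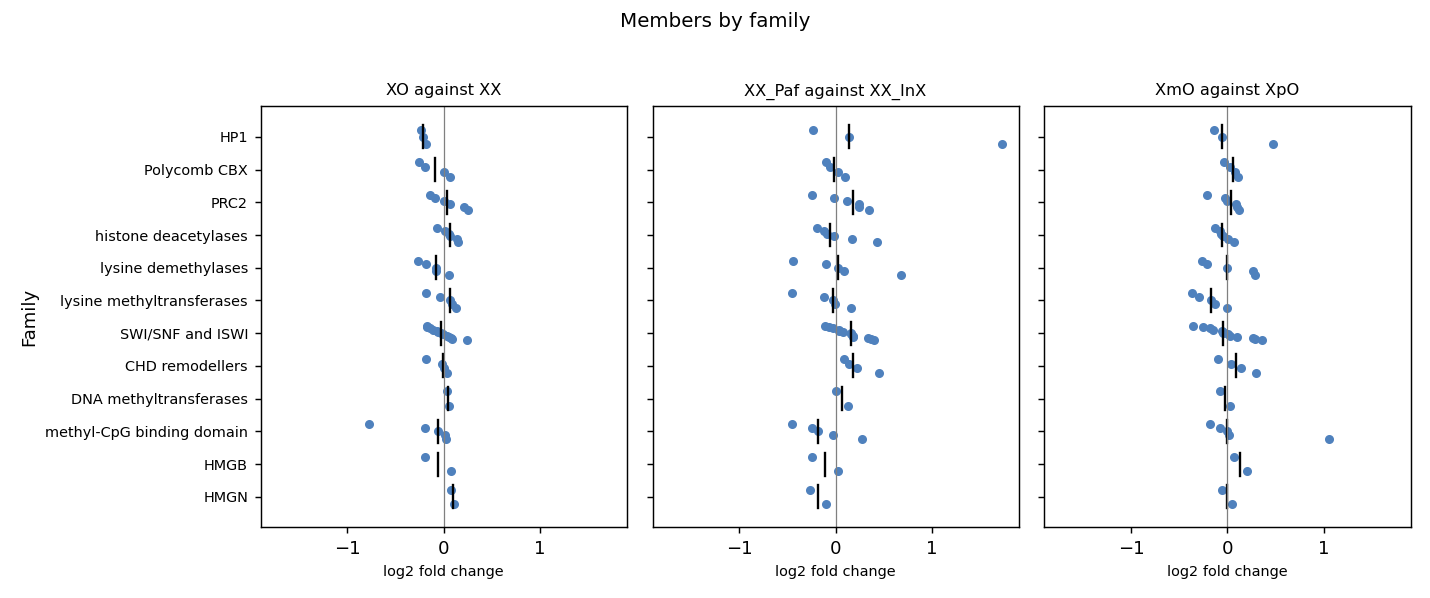
Log2 fold change of each tested member probe set (points) by family, with the family median as a bar, in XO against XX, XX_Paf against XX_InX and XmO against XpO. Most points lie within 0.5 of zero, and Cbx1 stands at 1.73 in the XX comparison.

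Of the Mbd genes, Mbd2 had the widest residual spread of the 57 tested members. It read 17.6 on XpO 18 and 78.9 to 132 on the other 9 arrays. It lay above background on 7 arrays and below it on XpO 18, XX_InX 1 and XmO 7. The fitted -1.17 (SE 0.65, adjusted p = 1.0) in XpO against XX_InX thus rests on the low value of XpO 18. The other XpO array read 106, between the XX_InX arrays at 85.6 and 109.6. Mbd6 read 597 and 637 in XpO and 717 and 692 in XX_InX, a difference of -0.19 that did not pass. Mbd4, a glycosylase that repairs mismatched CpG sites, gave -0.45 in XX_Paf against XX_InX, without passing. Mbd1 and Mbd3 gave 0.01 and 0.02 in XO against XX.

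Hmgn1, a nucleosome-binding protein that loosens chromatin, read 8059, 8189.9 and 8056 in XmO, 6893, 7474 and 6962 in XX_Paf, 7630.4 and 8008 in XpO and 8025 and 7263 in XX_InX. The XmO arrays were the 3 highest, and the difference from XX_Paf was 0.19 (SE 0.08, adjusted p = 0.877). Hmgb2, a DNA-bending protein of dividing cells, gave -0.35 (SE 0.30, adjusted p = 1.0) in XpO against XX_InX. Hmga2 and Hmgb4 were too dim to be tested.

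Partners of these proteins that the rule does not hold were counted from a list of 63 genes, such as heterochromatin, Polycomb, co-repressor, SWI/SNF and acetyltransferase genes, of which 43 were measured and 40 tested. Of the 40, 0 were called in each of the 7 comparisons, where 0.0115% to 0.104% of all tested probe sets were, and between 0 and 2 had an unadjusted p under 0.05, where 2.6% to 13.8% of all did. In XX_Paf against XX_InX, 28 of the 40 had a positive difference (47.3% of all tested probe sets did) and 12 a negative one, with a median of 0.11, and 2 had an unadjusted p under 0.05. By sub-list, 7 of 7 SWI/SNF partners were positive (median 0.28), 6 of 7 heterochromatin genes (0.10), 8 of 12 Polycomb genes (0.12) and 3 of 4 acetyltransferases (0.31). The sub-lists of deacetylase complexes and DNA methylation had 3 of 8 (-0.08) and 1 of 2 (0.02). Gatad2a, a NuRD subunit, gave -0.42 (SE 0.11, adjusted p = 0.174) in the Paf against the In(X) cross and did not pass. It was the 1 partner of the 40 with an unadjusted p under 0.05 there (12.7% of all), and was chosen after its value was seen. In simulated data of 8695 probe sets, many were changed at once by a log2 difference of 1. The change was recovered in 84.0% of the changed probe sets for XO against XX and in 65.5% for XX_Paf against XX_InX. For XpO against XX_InX it was 51.0%, and for the difference of the monosomy effects 32.5%. With many changes at once the adjustment is less strict than for a single one, so the rate for 1 lone member may be lower. A change of that size in a single member could thus be missed.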

How the data were processed

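The authors' table holds linear intensity values, 1 for each probe set on each array, and the algorithm that summarised the probes is not given in the sources used here. These intensity values were used as deposited. Of 12488 probe sets, 66 controls were left out. Symbols came from the platform's probe table, which gave 1 symbol for 10833 probe sets, several for 396 and none for 1193. A floor of 15, the 10th percentile of the table, replaced dimmer values before log2 was taken. Probe sets with a mean log2 value at or above the 30th percentile, 8695 in all, entered the test.

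limma 3.58.1 in R 4.3.3 (lmFit with 1 mean per group over the 10 arrays, eBayes with a trend on intensity, 6 residual degrees of freedom) gave 7 two-sided contrasts. Adjustment was by Benjamini-Hochberg over all tested probe sets, with a call at an adjusted p under 0.05. The labels gave groups and replicate numbers but no batch, and the number of arrays limits the precision. XmO and XX_Paf share the numbers 1 and 2, and the labels do not say whether equal numbers pair samples. The correlation of deviations was -0.0123 and -0.0415, which cannot settle this, and the main fit used no pairing.

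The members and lists were chosen with earlier results of these data known. Named were members called, and up to 3 per direction and contrast with the smallest p and no overlap. For the difference of the monosomy effects, effects of opposite sign took the place of no overlap. X- and Y-linked, HP1, PRC2 and Dnmt members, and members with several probe sets, were named too. Others were chosen after values were seen. Among them were Chd8 and Hmgb3 in the cross comparison, Mbd2, Cbx7, Chd4, Gatad2a, values given to complete a family, and the neighbours. The fit was tested on simulated data with the real means and spreads. Alternatives changed the floor, offset, filter, trend, normalization, fitted groups and arrays.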

Additional observations from a re-analysis of the deposited data

How the results depend on the processing

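Counts of calls were small and moved with the settings. With no filter on low values, the probe sets called numbered 5 in XO against XX (1 before) and 4 in XmO against XX_Paf (2 before). They numbered 7 in XpO against XX_InX, 3 for XmO compared with XpO (1 before in each), 5 for the difference of the monosomy effects (2 before) and 17 in XX_Paf against XX_InX (7 before). With the filter at the 50th percentile, 1 was called for the difference and 22 for the Paf against the In(X) cross (9 before). Without the intensity trend the difference had 0, XX_Paf against XX_InX 2 and the cross comparison 1, and fitting XX_Paf and XX_InX alone gave 35. Of the members, 1 was called with no filter in XO against XX, XpO against XX_InX, the difference, XX_Paf against XX_InX (in place of Cbx1) and the cross comparison, in each case Cbx7, which lay below background. With the filter at the 50th percentile 1 was called in the cross comparison, Cbx1 (adjusted p = 0.0377), and without the trend 0 were in XX_Paf against XX_InX. Leaving out 1 array at a time gave 1 to 3, 2 to 4, 2 to 4, 1 to 7, 0 to 4, 2 to 17 and 1 to 105 probe sets called in the 7 contrasts, the last in the cross comparison, with 105 without XpO 15. Members called were 0 in all of these, except in the cross comparison, where Cbx1 passed without XmO 1 (1.20, adjusted p = 0.038) or XpO 15 (1.10, adjusted p = 0.0469). A lone array left in XpO or XX_InX was assumed to vary like the other groups. Of 572 alternative values of 43 named results, 556 kept their direction and side of the threshold, 7 lost the call and 3 gained it, all of Cbx1, and 6 turned sign on leaving out 1 array. These were Hmgn5 in XO against XX (-0.01 to 0.16), and in XpO against XX_InX Hdac6 (-0.14 to 0.07), Hmgb3 (-0.02 to 0.01, with 0.0 without XX_InX 19) and Kdm6a (-0.18 to 0.03). Fitting the replicate block on numbers 1 and 2 of XmO and XX_Paf, with 1 residual degree of freedom, called 1 probe set and 0 members. Whether these numbers pair samples is not given by the labels. The cause of these moves was not tested.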
